A study of Mus musculus with 22 samples.

Results

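The CD44Neg endothelium of the aorta-gonad-mesonephros (AGM) region was compared between embryonic days 11 and 9.5 (E11 and E9.5). The members were the libraries that the labels give as CD44Neg at either stage, 7 of the 22 libraries of the series, with 3 at E11 (replicates 1 to 3) and 4 at E9.5 (replicates 4 to 7). All were made from C57BL/6 embryos with no treatment and no altered allele named, and each from 25 sorted cells that carried VE-Cadherin and lacked CD44 on their surface. The gate takes no account of the vessel, so it could hold endothelium of the aorta, of the cardinal veins and of smaller vessels. RNA was amplified by the Smart-seq2 protocol, which copies polyadenylated transcripts from very few cells, and the reads of each gene were counted. The labels carry 1 date code for all E11 libraries, another for all E9.5 libraries and a further one for all E10 libraries (in each population), so that stage and date code cannot be told apart, and no value within a date code can be had.

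The dorsal aorta of the AGM is where the endothelium gives rise to the first blood stem and progenitor cells. Cells taking that route gain CD44, and the CD44Neg fraction holds endothelium without it at the time of sorting. Around these stages the aorta fuses, circulation becomes established, and the vessel wall acquires a basement membrane and supporting cells. Endothelial maturation in the embryo is known for the gain of junction, caveola and matrix genes. Early embryonic tissues at large express RNA-binding growth regulators, such as LIN28, which later decline as let-7 microRNAs accumulate.

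The 7 libraries held 3912350 to 7132809 counts, with no separation of the stages by total (exact permutation test, two-sided, p = 0.743), and 10825 to 11993 genes with at least 1 count. The ribosomal RNA precursor Rn45s took 15.2% to 17.9% of the counts at E11 and 1.92% to 13.8% at E9.5, without overlap (exact permutation test, two-sided, p = 0.0571, the smallest that 3 against 4 can give). Its part in the results was not tested. The number of genes that passed was 81 with Rn45s removed from the counts and 79 with it. This removal does not test what the share of Rn45s reflects. Cdh5, which encodes VE-Cadherin, was at 193 to 305 normalized CPM (CPM, counts scaled to library size, with TMM factors) at E9.5 and 256 to 441 at E11. Cd44 was at 23.4 to 60.2 at E9.5 and 2.17 to 21.8 at E11, below its mean in CD44LowKitNeg libraries (321 before E11 and 204 at E11). Of the 28 pan-endothelial genes fixed as markers, all 28 reached 10 normalized CPM in at least 1 of the 7 libraries. Of the markers of other cells, 11 of 15 hepatic and gut, 10 of 17 macrophage, 12 of 19 erythroid and 7 of 17 neural markers had no count in any of the 7. The summed macrophage markers were 20.3 to 34.1 at E9.5 and 37.8 to 40.4 at E11, with 2 of the 17 reaching 10 normalized CPM in a library. The summed megakaryocyte markers moved the other way, 223 to 469 at E9.5 and 108 to 174 at E11, where 1 gene of the 12 reached 10 (Clec1b, chosen after its values were seen). The summed mesonephric and coelomic markers were 8.2 to 37.6 and 2.12 to 11.3, with 8 of 15 at 0. The part of other cells in the results was not tested. No source used here says that the libraries of a stage came from separate litters, so p-values measure the spread between these sorts of 25 cells. In pools of cells, a change in the share of cells that express a gene and a change in the RNA of each cell cannot be told apart.

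At E11 the CD44Neg endothelium had more RNA of Pecam1, an endothelial junction gene, Cav1, the scaffold of caveolae, and the matrix genes Sparcl1, Sparc and Lama4, and less of the embryonic regulators Lin28a, Prtg and Hmga2 and of the chaperones Hspe1, Hsph1 and Hspa8. Of 10813 genes tested, 45 were higher at E11 (0.416% of those tested) and 34 were lower (0.314%) at an adjusted p under 0.01 in edgeR's quasi-likelihood test. At an adjusted p under 0.05 there were 195 higher (1.8%) and 212 lower (1.96%). None of the 79 genes overlapped between the stages; among all genes tested, 9.39% had every E11 library above every E9.5 library and 11.9% had every one below. The median log2 fold change of the 79 was 1.63 for those that rose and -1.40 for those that fell, against 0.02 over all genes tested. Of the 79, Lin28a and Fabp4 had no count in any library of a stage. The count depended on single libraries: it was 4, 20 and 10 without E11 replicates 1, 2 and 3, and 11, 78, 134 and 14 without E9.5 replicates 4, 5, 6 and 7. All 79 genes kept their direction in each of those 7 fits, which their lack of overlap between the stages fixed in advance. E9.5 replicate 6 stood apart from the other E9.5 libraries in its counts, with a chi-square per degree of freedom, over pairs of libraries, of 61.1 to 85.2 against 17.1 to 20.4 among the other three, and the 79 genes were all called without it. Replicate 6 was also the library with 1.92% Rn45s, which was among the counts in that chi-square, and with 10825 genes detected.

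**Figure D1:**
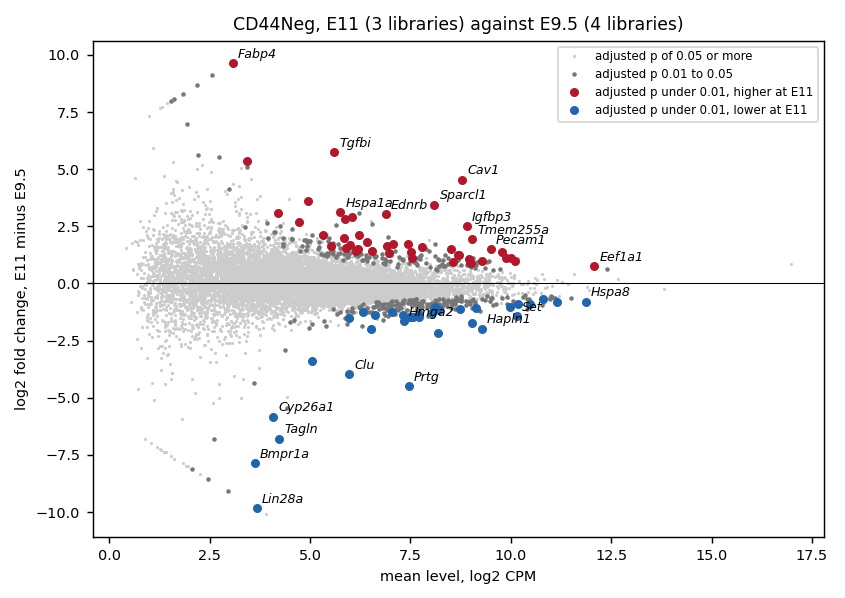
Each point is 1 of the 10813 genes tested, with its mean level (log2 CPM) on the x axis and its log2 fold change, E11 minus E9.5, on the y axis; red and blue points are the 45 higher and 34 lower genes. Most called genes lie at moderate or high levels with changes of 1 to 4 log2 units. The fitted changes of Fabp4 and Lin28a, which had no count at one stage, depend on the prior count.

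Among the genes that fell were 3 regulators of the early embryo. Lin28a, an RNA-binding protein that blocks the maturation of let-7 microRNAs (chr4:134003330-134018841, minus strand, GRCm38), was at 31.1, 23.9, 18.5 and 15.8 normalized CPM in E9.5 replicates 4 to 7 and had no count in any E11 library. Against the 3 counts that 0 allows over the group, this was at least 114-fold lower at E11 (adjusted p = 0.00294, edgeR). All 4 E9.5 libraries expressed it, whereas at E10 only replicate 8 did at a comparable level (28.1 normalized CPM, against 0.215 and 1.34 in the other two).
Prtg, which encodes protogenin, a receptor of the immunoglobulin superfamily found in early embryonic tissues (chr9:72806874-72917291), was at 384, 161, 441 and 233 normalized CPM at E9.5 and at 12.2, 19.7 and 7.9 at E11. It fell by 4.49 ± 0.43 (SE) on the log2 scale (adjusted p = 0.000474, edgeR), and the lowest E9.5 library stood far above the highest at E11. Hmga2, a chromatin architectural protein of growing embryonic cells (chr10:120361275-120476469), was at 204, 258, 285 and 185 at E9.5 and 71.0, 67.2 and 77.5 at E11, a fall of 1.65 ± 0.21 (adjusted p = 0.003, edgeR).
Igf2bp3, an RNA-binding protein that stabilises growth-related messages, was at 210 to 300 at E9.5 and 118 to 143 at E11 and passed only the wider threshold (adjusted p = 0.0223, edgeR). Of 21 fetal regulators tested, 3 were lower at an adjusted p under 0.01 and 4 at 0.05, against 0.314% and 1.96% of all genes tested. None was higher, and 16 of the 21 had a negative log2 fold change (median -0.56, against 0.02 over all genes). The close relatives did not all pass. Lin28b was at 60.7 to 89.9 at E9.5 and 3.72 to 35.5 at E11 (adjusted p = 0.0898), Igf2bp1 had a log2 fold change of -0.77 ± 0.23 (adjusted p = 0.0946), and Igf2bp2 one of 0.20 ± 0.32 (adjusted p = 0.804, all edgeR). Leaving out a library left 3 to 5 of the list lower at 0.05 and 0 to 3 at 0.01, with 0 without E11 replicate 1 and 1 without E11 replicate 3 or E9.5 replicate 4.

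The let-7 family is printed here because Lin28a restrains it and because Hmga2, the IGF2BP messages and Lin28a itself are textbook let-7 targets; no microRNA was measured. The RefSeq table (GRCm38.p6) held 8 mature let-7 5p sequences that share the seed, bases 2 to 8. Only let-7a, b, d and g are shown, with the seed in capitals:
mmu-let-7a-5p: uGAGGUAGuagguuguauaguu
mmu-let-7b-5p: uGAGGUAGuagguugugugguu
mmu-let-7d-5p: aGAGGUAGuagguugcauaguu
mmu-let-7g-5p: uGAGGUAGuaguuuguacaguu
A match to that seed is the 7 letters CTACCTC in the message. In the annotated 3′ untranslated regions (GENCODE vM21, the longest of each gene), Hmga2 held 4 matches, Lin28a 2, Prtg 2 and Igf2bp3 1. The first match of each is shown on the strand of the message, with the matched letters in capitals:
Lin28a (chr4:134005186-134005210): cacagcctgttgaaCTACCTCattt
Hmga2 (chr10:120364221-120364245): ccgacattcaatttCTACCTCagca
Prtg (chr9:72912559-72912583): cctctgctgaatagCTACCTCagtt
Igf2bp3 (chr6:49086784-49086808): gcatttttactcaaCTACCTCaggt
These 3 genes, Lin28a, Hmga2 and Prtg, were the only ones with a match among the 34 called lower, a share of 8.82%, against 10.8% of all genes tested that have such a region and 2 of 45 genes called higher. The share was no higher among the genes that fell than among all genes, whose regions were longer (medians of 662 and 1228 bases). Of the fetal regulators with a region annotated, 12 of 19 held a match, but that list was drawn up from such genes and their regions had a median of 3014 bases.

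Other large falls joined a receptor, an enzyme of retinoic acid removal and proteins of the matrix and cytoskeleton. Bmpr1a, a type I receptor of bone morphogenetic proteins, was at 17.1, 12.9, 28.1 and 27.3 normalized CPM at E9.5 and at 0, 0.197 and 0 at E11, with 2.8 to 6.94 at E10 (log2 fold change -7.86 ± 1.0, adjusted p = 0.00303, edgeR). Of 27 BMP and TGF-beta genes tested, Eng was higher at 0.01, Tgfbr2 was higher at 0.05, and Bmpr1a alone was lower in edgeR, while DESeq2 gave 3 lower at 0.05 and 4 higher. Over all genes tested, 1.8% were higher and 1.96% lower at 0.05 in edgeR. Without E11 replicate 1 or 3 no gene of the list was higher at 0.05, and 1 was without E11 replicate 2 or E9.5 replicate 4 or 7. Bmpr2, the type II partner, was at 70.8 to 145 at E9.5 and 84.2 to 220 at E11, and the groups overlapped.
Cyp26a1, the enzyme that clears retinoic acid, was at 17.9, 37.3, 29.5 and 32.6 at E9.5 and at 0, 0 and 1.24 at E11 (log2 fold change -5.83 ± 0.95, adjusted p = 0.00907, edgeR). It was the only gene lower at 0.05 among 13 retinoic acid genes tested, where 1.96% of all genes tested were lower.
The 120 bases before the RefSeq start of Cyp26a1 (GRCm38.p6, chr19:37697688-37697807, plus strand) hold a direct repeat of the kind bound by retinoic acid receptors, in capitals, which is shown because Cyp26a1 is a classical retinoic acid target:
Cyp26a1: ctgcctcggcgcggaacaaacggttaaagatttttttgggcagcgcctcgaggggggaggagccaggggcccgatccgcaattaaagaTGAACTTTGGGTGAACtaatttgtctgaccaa
The motif searched was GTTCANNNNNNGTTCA or its reverse complement, which 0.0761% of 32851 promoter windows hold (250 bases before to 50 after the start).

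Hapln1, the link protein that ties hyaluronan to proteoglycans, was at 988, 699, 975 and 1100 at E9.5 and at 216, 286 and 191 at E11 (log2 fold change -1.98 ± 0.19, adjusted p = 0.000474, edgeR). Clu, the secreted chaperone clusterin, was at 78.9 to 135 at E9.5 and 3.74 to 9.14 at E11 (-3.97 ± 0.37, adjusted p = 0.000474, edgeR). Along with Prtg, these had the smallest p among the genes that fell, and neither pair of groups came near overlap. Lgals1 (galectin-1) was at 378 to 478 at E9.5 and 69.6 to 124 at E11, Ybx1 (a Y-box nucleic acid-binding protein) at 697 to 956 and 185 to 262, and Gap43 (growth-associated protein of neurons and other cells) at 212 to 290 and 81.5 to 108. Lgals1 was called in each of the 7 fits without a library, which held for only 3 other genes, Pecam1, Sparcl1 and Tmem255a. Other named falls were those of Gsta4 (a glutathione S-transferase, from 34.2 to 72.0 to 1.58 to 7.9), Bex2 (from 117 to 157 to 20.9 to 51.4) and Glrx5 (iron-sulphur cluster assembly, from 72.9 to 101 to 27.0 to 36.4).
Tagln, an actin-binding protein of smooth muscle, was at 18.5, 18.8, 55.9 and 37.9 at E9.5 and at 0, 0.788 and 0 at E11 (-6.80 ± 0.99, adjusted p = 0.00721, edgeR). Acta2, smooth muscle actin, was at 3.34 to 71.8 at E9.5 and 0 to 2.17 at E11 and was lower at 0.05 (adjusted p = 0.0378). The other 4 smooth muscle and pericyte markers tested did not pass, the list summed to 98.3 to 296 at E9.5 and 59.1 to 140 at E11, and 2 of its 14 genes had no count in the 7 libraries. Whether cells of that type entered the E9.5 sorts was not tested.

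**Figure D2:**
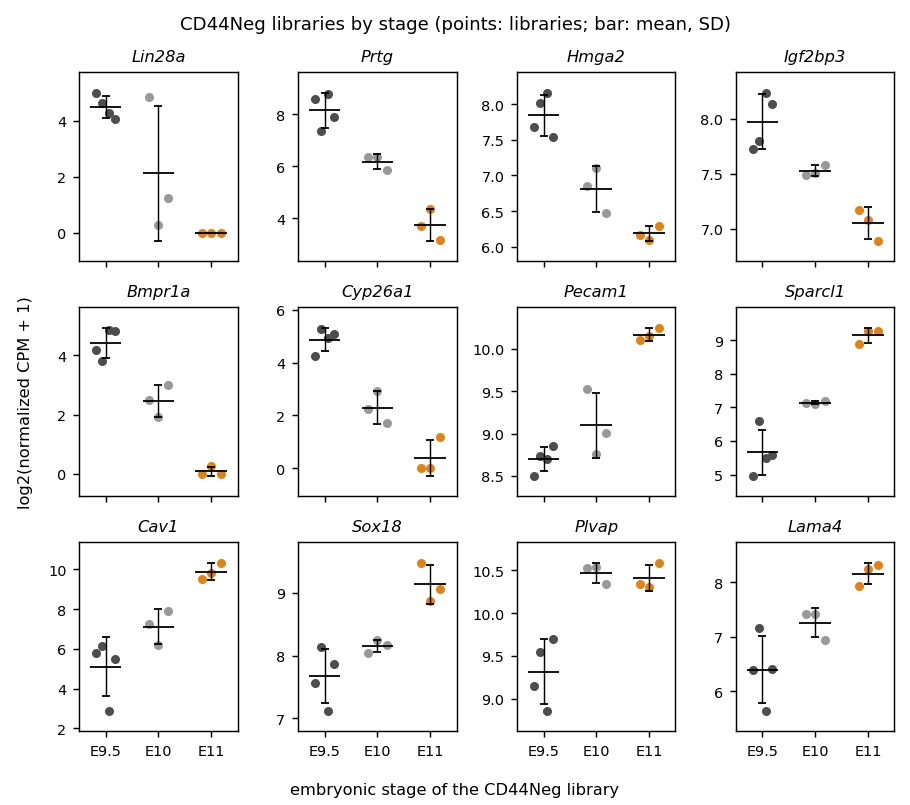
Each panel shows 1 gene in the 10 CD44Neg libraries, with log2(normalized CPM + 1) on the y axis and the stage on the x axis (points are libraries, bars the mean and SD of 4, 3 and 3). The 6 genes that fell and the 6 that rose do not overlap between E9.5 and E11; E10 lies between them on average, except for Plvap, whose E10 libraries (1290 to 1480 normalized CPM) already sit within the E11 range of 1270 to 1540.

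Several pan-endothelial genes rose. Pecam1, the adhesion molecule of endothelial junctions (chr11:106654217-106750628), was at 362, 425, 417 and 463 normalized CPM at E9.5 and at 1090, 1140 and 1210 at E11, a log2 fold change of 1.51 ± 0.13 (adjusted p = 0.000369, edgeR). Sox18, a SOXF transcription factor of blood and lymph vessels, was at 138 to 280 at E9.5 and 466 to 713 at E11 (1.49 ± 0.23, adjusted p = 0.00859, edgeR). Eng, the TGF-beta co-receptor endoglin, Plvap, which forms the diaphragms of fenestrae and caveolae, and Esam, another junction molecule, rose by 1.25 ± 0.21, 1.12 ± 0.18 and 0.99 ± 0.16.
Of the 28 pan-endothelial genes, 5 rose at an adjusted p under 0.01 and 11 at 0.05 (edgeR), where 0.416% and 1.8% of all genes tested rose. None of the 28 fell, and the median log2 fold change was 0.60. The further 6 at 0.05 were Icam2, Ramp2, Tie1, Mcam, Robo4 and Sox7. Members that did not pass included Kdr, the main VEGF receptor, at 281 to 480 at E9.5 and 469 to 657 at E11 (adjusted p = 0.112), and Cldn5, the tight junction claudin, at 699 to 1010 and 872 to 1170 (adjusted p = 0.371). Tek, the angiopoietin receptor, was at 335 to 487 and 342 to 452 (log2 fold change 0.03 ± 0.16), so the rise did not extend to every gene of the list.
Summed over the list, normalized CPM was 9500 to 11000 at E9.5, 12200 to 12800 at E10 and 14100 to 15500 at E11, without overlap between any pair of stages. The count at 0.05 was 4, 7 and 3 without E11 replicates 1, 2 and 3 and 8 to 12 without an E9.5 library, and the count at 0.01 was 1 without any of replicates 1 to 4 or 7.

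Genes linked to blood flow and vessel maturation were also among the calls. Of 41 tested, 8 rose at 0.01 and 10 at 0.05, where 0.416% and 1.8% of all genes tested rose. None of the 41 fell, and 37 had a positive log2 fold change (median 0.45, or 0.71 without replicate 1 and 0.73 in limma voom). The list was chosen with earlier results of these data known, so these counts describe it and test nothing. Cav1, the scaffold of caveolae, was at 54.9, 69.8, 6.42 and 44.4 at E9.5 and at 740, 896 and 1290 at E11, with 71.0 to 238 at E10 (4.53 ± 0.54, adjusted p = 0.0023, edgeR). Sparcl1, a matrix glycoprotein, was at 30.3, 95.6, 44.0 and 46.7 at E9.5 and at 471, 616 and 617 at E11 (3.44 ± 0.33, adjusted p = 0.000474, edgeR). Both were low in every E9.5 library and among the more abundant genes of the group at E11.
Ednrb, the endothelin B receptor, rose by 3.02 ± 0.34 from 18.1 to 40.5 at E9.5 to 149 to 349 at E11, although the E10 libraries were at 69.7, 12.9 and 0. Gpihbp1, which holds lipoprotein lipase at the surface of capillaries, was at 5.61 to 11.7 and 39.2 to 67.1. Icam1, the leukocyte adhesion molecule, was at 45.1 to 81.5 and 149 to 248 (1.66 ± 0.24).
Fabp4, a fatty acid-binding protein of capillary endothelium, had no count at E9.5 and was at 9.8, 13 and 33 normalized CPM at E11, at least 131-fold higher against the 3 counts that 0 allows over the group (adjusted p = 0.00899, edgeR). Without a library, 7 to 11 of the list were higher at 0.05, the 7 without E11 replicate 3. At 0.01 the count was 2, 4 and 2 without E11 replicates 1, 2 and 3, and 3 without E9.5 replicate 4 or 7.

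Several components of the endothelial basement membrane rose. Of 44 basement membrane and matrix genes tested, 11 were higher at 0.05 and 2 of them, Lama4 and Sparc, at 0.01, against 1.8% and 0.416% of all genes tested. Lama4, the laminin chain of endothelial basement membranes, was at 82.6, 142, 49.1 and 83.8 at E9.5 and at 245, 301 and 317 at E11 (1.74 ± 0.29, adjusted p = 0.00947, edgeR). Sparc, a collagen-binding matrix protein, was at 724 to 855 and 1460 to 1600 (0.97 ± 0.11, adjusted p = 0.0016, edgeR).
The others were the collagen IV chains Col4a1 and Col4a2 (0.95 and 1.20), Col15a1 and Col18a1 (2.51 and 1.08), Lamb1 (0.82), the proteoglycans Hspg2 (1.31) and Agrn (1.25), Timp3 (0.85) and Thsd1 (1.11), all log2 fold changes at an adjusted p between 0.012 and 0.0377 (edgeR). Fbn2, a fibrillin of the early matrix, was the exception, at 118 to 203 at E9.5 and 61.4 to 85.5 at E11 (-1.07 ± 0.22, adjusted p = 0.0223). The count of 11 was sensitive to single libraries: it was 5, 2 and 3 without E11 replicates 1, 2 and 3, and 4 and 6 without E9.5 replicates 4 and 7. At 0.01, none was higher without replicate 1, 3, 4 or 7, 1 was without replicate 2 and 5 were without replicate 5.
Of 23 genes of sprouting tip cells, 7 were higher at 0.05 (1 to 4 without E11 replicates 1 to 3 or E9.5 replicates 4 or 7), against 1.8% of all genes tested. They were led by Igfbp3, an insulin-like growth factor-binding protein, at 74.4 to 251 at E9.5 and 730 to 1130 at E11 (2.52 ± 0.40, adjusted p = 0.00899, edgeR).

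Some arterial and some venous genes were higher at E11. Of 20 arterial genes, 3 were higher at 0.05 (Sox17, Epas1 and Gja4, none at 0.01). Of 11 genes listed as venous, 3 were higher (Eng, Ephb4 and Nrp2, with Eng at 0.01). None of either list was lower, where 1.8% of all genes tested were higher at 0.05. Lists share members: Eng was also counted among the pan-endothelial and the BMP and TGF-beta genes. At E11 Eng averaged 616 normalized CPM in CD44Neg and 739 in CD44LowKitNeg. An unadjusted p under 0.05 was found for 9 of the 20 (45%) and 6 of the 11 (54.5%), against 19.6% of all genes tested. The medians were 0.67 and 0.52, against 0.60 for the pan-endothelial list. Without E11 replicates 1, 2 or 3 or E9.5 replicate 4 no arterial gene was higher at 0.05, and 1 was without E9.5 replicate 6 or 7. The venous count was 1 without E11 replicates 1, 2 or 3 or E9.5 replicate 7. Dll4, the arterial Notch ligand, was at 9.05 to 70.2 at E9.5 and 71.0 to 116 at E11 and missed the threshold (1.47 ± 0.51, adjusted p = 0.137). Efnb2, the arterial ephrin, was at 79.2 to 122 and 80.2 to 155, and Nr2f2, the venous transcription factor, at 77.8 to 244 and 89.7 to 116, with overlap in both. In 31 Notch pathway genes, Mfng, a glycosyltransferase that modifies Notch, was the only call at 0.05 (1.38 ± 0.29), where 1.8% of all genes tested were higher. No gene of that list was called without replicate 1, 2, 3 or 7.

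The remaining large rises included genes outside those lists. Tgfbi, a matrix adhesion protein induced by TGF-beta, was at 0 to 5.85 at E9.5 and 92.5 to 141 at E11 (5.76 ± 0.88, adjusted p = 0.00859, edgeR). Tmem255a, which had the smallest p of all, was at 273, 206, 241 and 250 at E9.5 and at 915, 1030 and 760 at E11 (1.94 ± 0.15, adjusted p = 0.000247, edgeR). Its E10 libraries were at 521, 180 and 580, so 1 of them was still below every E9.5 library.
Trp53i11, Rgcc, Apold1 and Hpgd rose by 2.82 to 3.63 on the log2 scale, and Plcg1, a phospholipase that acts below the VEGF receptors, by 2.14 ± 0.34. Hpgd degrades prostaglandins, and Rgcc is a regulator of the cell cycle. B2m, the shared chain of MHC class I molecules, was at 333 to 421 and 616 to 736 (0.91 ± 0.14, adjusted p = 0.00859, edgeR). With H2-D1 it made 2 of 27 interferon-linked genes higher at 0.05 (1 without any of replicates 1 to 4 or 7), where 1.8% of all genes tested were higher.

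**Figure D3:**
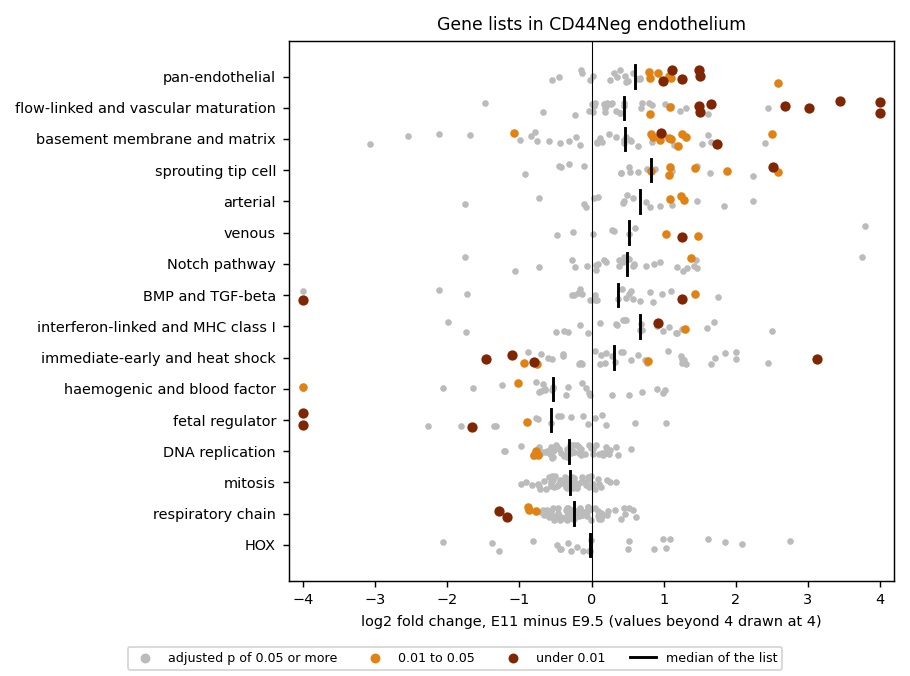
Each row is a gene list and each point a tested member, with the log2 fold change, E11 minus E9.5, on the x axis (values beyond 4 are drawn at 4); colours give the adjusted p and black bars the list median. The pan-endothelial, flow-linked and matrix lists hold most of the coloured points above 0, and those below 0 lie mainly in the respiratory chain, heat shock, fetal regulator and DNA replication lists; medians of the 16 lists drawn, a part of all lists counted, run from 0.82 for tip cell genes to -0.56 for fetal regulators.

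Of the heat shock genes, 5 chaperones fell and Hspa1a rose. Hspe1, the small subunit of the mitochondrial chaperonin, was at 663, 468, 542 and 624 normalized CPM at E9.5 and at 243, 284 and 246 at E11 (-1.11 ± 0.15, adjusted p = 0.00574, edgeR). Hspd1, the large subunit, was at 490 to 758 and 259 to 349 (-0.93 ± 0.17, adjusted p = 0.014). Hsph1, an exchange factor of the HSP70 family, fell by 1.47 ± 0.24 on the log2 scale, Hspa8, the constitutive HSP70, by 0.79 ± 0.12, and Hsp90aa1 by 0.76 ± 0.14 (adjusted p = 0.00961, 0.00784 and 0.0129, edgeR).
Hspa1a, the stress-induced HSP70, was at 18.3, 10.2, 14.9 and 7.16 at E9.5 and at 122, 70.6 and 129 at E11, with 55.4 to 211 at E10 (3.13 ± 0.36, adjusted p = 0.00187, edgeR). It is nearly identical to Hspa1b, which was at 1.64 to 6.1 and 1.06 to 9.92, and how reads were split between both is uncertain. Of 42 immediate-early and heat shock genes, these 5 chaperones were lower at 0.05 and Hspa1a and Dusp6, a phosphatase that limits ERK signalling, were higher. Over all genes tested, 1.96% were lower and 1.8% higher at 0.05. The list median was 0.31 (0.17 without replicate 3 or 4). None of the chaperones was lower at 0.01 without replicate 1, 2, 3, 4 or 7. At 0.05, the number lower was 2 without E11 replicate 2 and 3 without E11 replicate 3.

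The promoters of the chaperones that differ in direction are shown because both can hold heat shock elements, the repeats of GAA and its complement that heat shock factors bind. The 120 bases before the RefSeq start of Hspe1 (GRCm38.p6, chr1:55088028-55088147, plus strand), which it shares head to head with Hspd1, and of Hspa1a (chr17:34972157-34972276, minus strand) are printed with the matches in capitals:
Hspe1: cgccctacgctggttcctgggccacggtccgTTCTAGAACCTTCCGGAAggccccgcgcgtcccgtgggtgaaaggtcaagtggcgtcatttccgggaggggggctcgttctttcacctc
Hspa1a: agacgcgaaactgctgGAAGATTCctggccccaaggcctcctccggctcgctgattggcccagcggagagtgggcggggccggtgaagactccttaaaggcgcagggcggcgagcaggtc
The element of 3 units, GAANNTTCNNGAA or its reverse complement, was found in Hspe1, Hspd1 and Hsph1 and in 0.603% of the 32851 windows. Hspa1a held only the shorter GAANNTTC, which lies within the longer motif and occurs in 7.86% of windows. Hspa8 and Hsp90aa1 had no entry in the table.

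**Figure D4:**
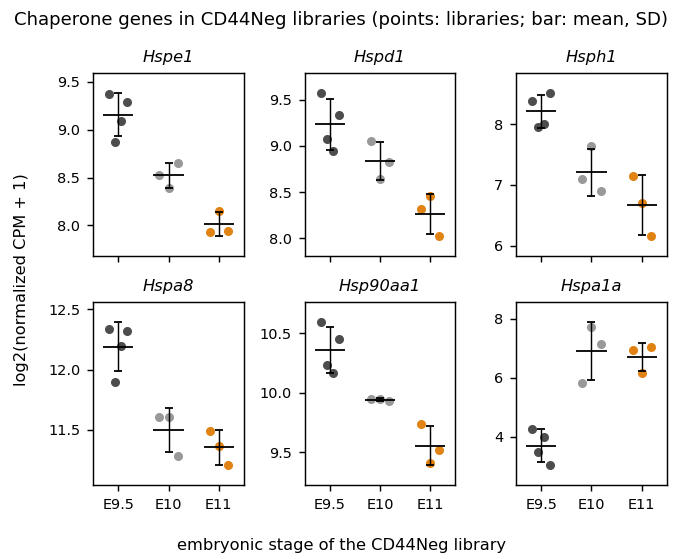
Each panel shows 1 chaperone gene in the 10 CD44Neg libraries, with log2(normalized CPM + 1) on the y axis (axes do not start at 0) and the stage on the x axis; bars are the mean and SD. Hspe1, Hspd1, Hsph1, Hspa8 and Hsp90aa1 step down from E9.5 to E11, while Hspa1a is at 7.16 to 18.3 normalized CPM at E9.5 and at 55.4 or more at E10 and E11.

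Of the respiratory chain, Atp5g1 and Cycs fell. Atp5g1, a subunit of ATP synthase, was at 334 to 469 at E9.5 and 157 to 187 at E11 (-1.17 ± 0.16), and Cycs, cytochrome c, at 261 to 476 and 138 to 150 (-1.28 ± 0.21, adjusted p = 0.00583 and 0.00907, edgeR). Of 76 respiratory chain genes these were the 2 lower at 0.01, with 5 lower at 0.05, against 0.314% and 1.96% of all genes tested. None was higher, and the median was -0.24, while DESeq2 gave 10 lower and 3 higher at 0.05. The count lower at 0.05 in edgeR was 2, 1, 1 and 2 without replicates 1, 2, 3 and 4. In 5 of the 7 fits without a library, neither was called.
Asns, asparagine synthetase, was at 171 to 184 at E9.5 and 54.9 to 88.7 at E11 (-1.25 ± 0.20, adjusted p = 0.00899, edgeR). Its regulator Atf4 went the other way (1.0 ± 0.25, adjusted p = 0.047), and Trib3, a target of Atf4, had no count at E9.5 and 3.1 to 18.7 normalized CPM at E11, at least 93.1-fold higher against the 3 counts that 0 allows over the group (adjusted p = 0.0173, edgeR). Nars fell, as Asns did (-0.90 ± 0.17, adjusted p = 0.0153, edgeR). Of 32 ATF4-linked genes tested, 2 were higher and 2 lower at 0.05, against 1.8% and 1.96% of all genes tested. None of the 32 was higher without E11 replicate 1 or 2. Abundant genes such as Hspa8 and Atp5g1 can have processed copies in the genome, and reads shared with copies leave their counts uncertain.
Cell cycle genes were counted in 3 lists. Of 32 G1 cyclin and CDK inhibitor genes none was called at 0.05 in edgeR or limma voom and 1 was lower in DESeq2, 4 had an unadjusted p under 0.05, and the median was -0.06 (-0.14 to 0.01 with a library left out). In 59 mitosis genes none was called at 0.05 in edgeR or limma voom and 1 was lower in DESeq2, 8 had an unadjusted p under 0.05 in edgeR (13.6%, against 19.6% of all genes tested), and 50 of the 59 had a negative log2 fold change (median -0.29, from -0.59 without replicate 1 to -0.13 without replicate 3). Without replicate 1, 1 mitosis gene was lower at 0.05 in edgeR. Mki67, the proliferation antigen, was at 144 to 276 at E9.5 and 120 to 213 at E11 and overlapped. Of 63 DNA replication genes, Rrm2, Rfc2 and Slbp were lower at 0.05, where 1.96% of all genes tested were lower. None was higher, and the median was -0.32. Of the 63, 21 had an unadjusted p under 0.05 (33.3%, against 19.6% of all genes), and DESeq2 gave 8 lower at 0.05 and limma voom 5. In edgeR none was lower without E11 replicate 2 or 3 or E9.5 replicate 4 or 7, and 1 was without E11 replicate 1. No HOX gene of 24 tested was called at 0.05 in edgeR or limma voom, 1 was in DESeq2, and 3 had an unadjusted p under 0.05 (12.5%, against 19.6% of all genes). The HOX median was -0.03 (-0.12 to 0.38 with a library left out, and 0.27 in limma voom). No gene of 36 in the WNT pathway was called at 0.05 in edgeR, 1 was in limma voom and 3 were in DESeq2, and 4 had an unadjusted p under 0.05 (11.1%, against 19.6% of all genes, median -0.11).

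Among blood factors, Runx1 and Lmo2 were lower at E11. Runx1, the factor required for blood emergence, was at 22.2, 2.44, 11.7 and 16.8 normalized CPM at E9.5 and had no count at E11, at least 67.9-fold lower against the 3 counts that 0 allows over the group (adjusted p = 0.0149, edgeR). Lmo2, a haematopoietic and endothelial cofactor, was at 102 to 156 and 46.3 to 70.7 (-1.02 ± 0.24, adjusted p = 0.0371). These were the 2 of 27 haemogenic and blood factor genes lower at 0.05, where 1.96% of all genes tested were lower. Neither passed that threshold without E11 replicate 1, 2 or 3 or without E9.5 replicate 4. In the CD44LowKitNeg libraries Runx1 averaged 78.6 normalized CPM before E11 and 0 at E11.

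The E10 libraries, which entered no part of the choice, lay between the stages for most of the 79 genes. The E10 mean was between those of E9.5 and E11 for 70 of 79 genes (88.6%), against 37.2% of all genes tested; the 79 were chosen for separation of the outer stages, which widens the interval. For the genes that fell, the E10 mean was nearer to E11 for 28 of the 32 that lay between. For those that rose, it was nearer to E9.5 for 27 of 38. Over all genes tested that lay between, it was nearer to E11 for 2195 and to E9.5 for 1826; on means of log2 values the first 2 counts were 23 of 32 and 22 of 36. By Euclidean distance on log2 values over all tested genes, E9.5 and E10 libraries were on average no nearer (127) than E9.5 and E11 libraries (122), where pairs within E9.5, E10 and E11 were at 109, 128 and 104, and 7 of the 10 CD44Neg libraries had a library of their own stage as the nearest.

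Stage differences in CD44LowKitNeg endothelium, an endothelial population of the same stages sorted for low CD44 without Kit, were set beside these. That comparison set 3 libraries at E11 against the average of E9.5 (1 library) and E10 (2 libraries), shares no library with the CD44Neg contrast, and carries the same date codes. Of the 77 genes with counts there, 68 had the same sign (88.3%), against 64.5% over all genes tested, and 21 of the 79 were called there as well, all in the same direction. Over all 10813 genes tested, 309 were called there with the same sign and 32 with the opposite sign. Sparcl1 rose by 3.16 in CD44LowKitNeg and by 3.44 in CD44Neg on the log2 scale, and Pecam1 by 1.38 and 1.51. Tagln, Cyp26a1 and Clu, which fell in CD44Neg, had fitted changes of -0.16, -0.78 and -0.61 in CD44LowKitNeg that did not pass (adjusted p = 0.999, 0.589 and 0.444, edgeR). Hspa1a, which rose in CD44Neg, had a change of -1.72 there (adjusted p = 0.269).
The difference between the changes from E9.5 to E11 was tested separately, and there CD44LowKitNeg at E9.5 is 1 library, assumed to vary like the other groups. It passed for 9 of 13686 genes (0.0658%), or 24 with E9.5 and E10 averaged in both populations, and of the 9, Bmpr1a was the only gene among the 79. In CD44LowKitNeg, Bmpr1a averaged 40.1 ± 6.32 normalized CPM before E11 and 95.8 ± 5.34 at E11 (SD, n = 3 each), while it was nearly absent from CD44Neg at E11. The difference, CD44Neg minus CD44LowKitNeg, was -9.06 ± 1.25 on the log2 scale (adjusted p = 0.00152, edgeR). The other 78 genes did not pass this test, which does not show that they changed alike.

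**Figure D5:**
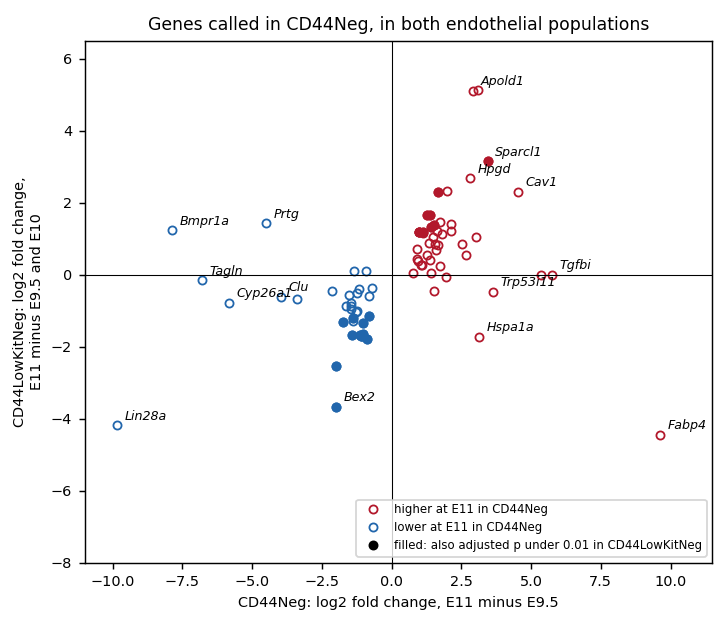
Each point is 1 of the 79 called genes, with its log2 fold change in CD44Neg (E11 minus E9.5) on the x axis and in CD44LowKitNeg (E11 minus E9.5 and E10) on the y axis; filled points are the 21 also called in CD44LowKitNeg, and genes without counts there are drawn at 0. Filled points lie only at the lower left and upper right, and Bmpr1a lies at the upper left.

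Xist, the transcript of the inactive X chromosome in females, was at 37.4 to 199 normalized CPM at E9.5 and 339 to 563 at E11 (1.72 ± 0.42, adjusted p = 0.0435, edgeR). Of 5 sex-linked markers tested, it alone passed 0.05, and 3 had a negative log2 fold change (median -0.18, or -0.82 to 0.35 with a library left out). In CD44LowKitNeg, Xist had a log2 fold change of 2.04. The sexes of the embryos behind each sort are not given in the sources used here. Transcripts of the genes that rose had a median GC content of 52.6% and those that fell 47.5%, against 49.3% over all genes tested, and their median lengths were 2849 and 2006 bases against 3448. The part of these measures in the results was not tested.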

How the data were processed

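Alignment by the authors was with STAR and counting with HTSeq; the deposited table holds whole-number counts for 24454 genes in 22 libraries (mm10, FastQC and HTSeq per the submitters' processing notes; the annotation and the treatment of multiply mapped reads are not given in the sources used here). Counts of the 7 libraries were filtered with filterByExpr (minimum count 10, total 15), scaled by TMM and tested in edgeR 4.0.16 (quasi-likelihood, prior count 0.125, Benjamini-Hochberg adjustment over all genes tested); a gene was called at an adjusted p under 0.01. The SE of a log2 fold change in edgeR was derived, as its size divided by the square root of the F statistic of its test. Where a stage had few or no counts, the change and this SE depend on the prior count. DESeq2 1.42.0, limma 3.58.1 and other settings were alternatives. Normalized CPM used TMM factors over the 16 endothelial libraries. The interaction was fitted over those 16, with E9.5 as the early stage in both populations. Library measures used exact permutation tests over the 35 arrangements. Scripts were tested on simulated data. Gene lists are described by counts and medians with no test.

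Genes were named as follows: among called genes without overlap and with a mean of at least 16 normalized CPM, the 12 largest rises and falls; the 3 smallest p each way; list members; and the sorting markers Cdh5, Cd44 and Kit. Kit had a log2 fold change of 0.69 (adjusted p = 0.179). The comparison and the lists were chosen with earlier results of these data known. Gene positions are from GENCODE vM21 (GRCm38, the sequence of mm10). Counts give depth only to counting error. A result that names a withheld item is not reported here.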

Additional observations from a re-analysis of the deposited data

Results flagged for a closer look

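Bmpr1a and Nrp2 were the named genes whose stage change differed between the populations by the test of the interaction (E11 minus E9.5 in each, with 1 CD44LowKitNeg library at E9.5). The log2 difference, CD44Neg minus CD44LowKitNeg, was -9.06 ± 1.25 for Bmpr1a (adjusted p = 0.00152, edgeR) and 9.69 ± 0.98 for Nrp2 (adjusted p = 8.06e-05). Nrp2, a co-receptor for VEGF-C and semaphorins, was at 26.8 to 65.3 normalized CPM at E9.5 and 101 to 131 at E11 in CD44Neg, and in CD44LowKitNeg it averaged 4.14 before E11 and had no count at E11, so the size of its difference depends on the prior count. Both passed in every alternative fit of the interaction.

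Within the 4 E9.5 libraries, 8 of 162 measures had a library that stood apart by the gap to its nearest neighbour (Dixon's criterion), where chance gives about 1 in 20. Lgals1 was lowest in replicate 7 at 378 normalized CPM, Ybx1 was highest there at 956, and Reln was highest there at 0.149. Gap43 was lowest in replicate 5 at 212 and Robo4 highest there at 73.7. Asns was lowest in replicate 6 at 171, Nr2f2 was highest there at 244, and its 10825 genes detected stood below the others.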

How the results depend on the processing

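The number of genes called, 79, stayed within 1.5 times under DESeq2 size factors, upper-quartile scaling, a mean of at least 20 counts, the fit of 10 CD44Neg libraries, removal of Rn45s and thinned counts. It was 270 with no filter, 540 in the DESeq2 Wald test, 178 in limma voom, 407 at an adjusted p under 0.05, 6 in the fit of all 22 libraries, and 4 to 134 with a library left out (4, 20, 10, 11, 78, 134 and 14 without replicates 1 to 7); the cause was not tested. The share higher was 57.0% as reported, 47.6% in DESeq2 and 16.7% of the 6. All 79 genes kept their direction in all of these fits, which shows little because none of them overlapped between the stages. Of the 79, 6, 60, 69 and 78 were called in the fit of 22 libraries, the fit of 10, limma voom and DESeq2. Without replicate 5, 53 of them were called. Over 79 genes, 362 of 553 values with a library left out were no longer past the threshold. The interaction, 9 genes, gave 24 with E9.5 and E10 averaged, 25 in limma voom and 40 at 0.05. For uncalled genes the sign turned: the log2 fold change of Tek was -0.02 with 22 libraries and -0.06 to 0.15 with a library left out, the log2 fold change of Efnb2 was then -0.23 to 0.29, the log2 fold change of Igf2bp2 -0.06 to 0.39, the log2 fold change of Hspa1b -0.99 to 0.79 and the log2 fold change of Nr2f2 -0.43 to 0.25. The share of the 50 most abundant genes changed by 5.40 percentage points, and by -0.788 without Rn45s. No paired analysis was possible because the stages share no replicate number. At 0 or few counts in a stage, depth limits the size of a change.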
